A study of Mus musculus with 50 samples.

Results

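The comparison described here is the passage of normal, uninjected mouse embryos from the early 2-cell stage (early 2C) to the late 2-cell stage (late 2C), across all genes. Its 12 libraries, 6 of each stage, were chosen by their labels from the 50 libraries of a study of the homeobox transcription factor DUXBL. The embryos were C57BL6/J of WT genotype and received no treatment. They came from superovulated females aged 3 to 12 weeks that had been mated with C57BL6/J males, were taken from the oviduct as zygotes and were cultured in KSOM medium. Early 2C embryos were harvested 32 h and late 2C embryos 48 h after hCG, the hormone given to trigger ovulation, so that 16 h separated the groups. Each library was made from 1 tube of 5 pooled embryos. Nothing in the labels says that the tubes came from separate collections, so p-values measure only the spread between these tubes, which may be technical. Other kinds of library were used beside them. These were 6 uninjected libraries at the end of the 1-cell stage (late 1C, 28 h to 30 h), 12 libraries of embryos injected at the 1-cell stage with 200 ng/µl of mRNA for a nuclear mCherry protein (6 at each 2-cell stage), and 10 of embryos injected with 200 ng/µl of mRNA for V5-tagged Duxbl joined to the same mCherry (5 at each stage).

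A mouse embryo starts life on RNA and protein that the oocyte stored. In the early 2-cell embryo its own genome is only weakly transcribed, and a short-lived set of 2-cell genes such as the Zscan4 family is switched on first. The major wave of genome activation follows later in the 2-cell stage, while the stored maternal RNA is deadenylated and degraded.

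The deposited table gave 1 whole number per gene and library, scaled by the authors, for 35750 genes. Values are given below as CPM, meaning deposited values scaled to a common library size with trimmed means, and changes are log2 ratios of CPM + 1 with their standard errors (SE). limma tested 28808 genes, and a gene was called, and is said to have risen or fallen, at a Benjamini-Hochberg adjusted p under 0.05 over all of them. Every value is relative to the library, so fewer RNA molecules of a gene and more RNA of all other genes cannot be told apart, and neither can a change in total RNA per embryo be seen. The cDNA kit primes on poly(A) tails, so a change of tail length and a change of RNA amount cannot be told apart either. The kit did not mark strand, so antisense partners and near-identical gene copies, which are common among the families below, may share reads. Summed over all genes, the deposited values came to 24.2 to 25.98 M in early libraries and 12.04 to 18.2 M in late ones. Rank correlations over the 11744 genes that reached 10 CPM were 0.92 to 0.98 among early libraries, 0.78 to 0.96 among late libraries and 0.28 to 0.45 between the stages. The late libraries numbered 4 and 5 in the labels stood apart from the other 4, and each count that leads an account below was also made without both libraries of those numbers.

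**Figure D1:**
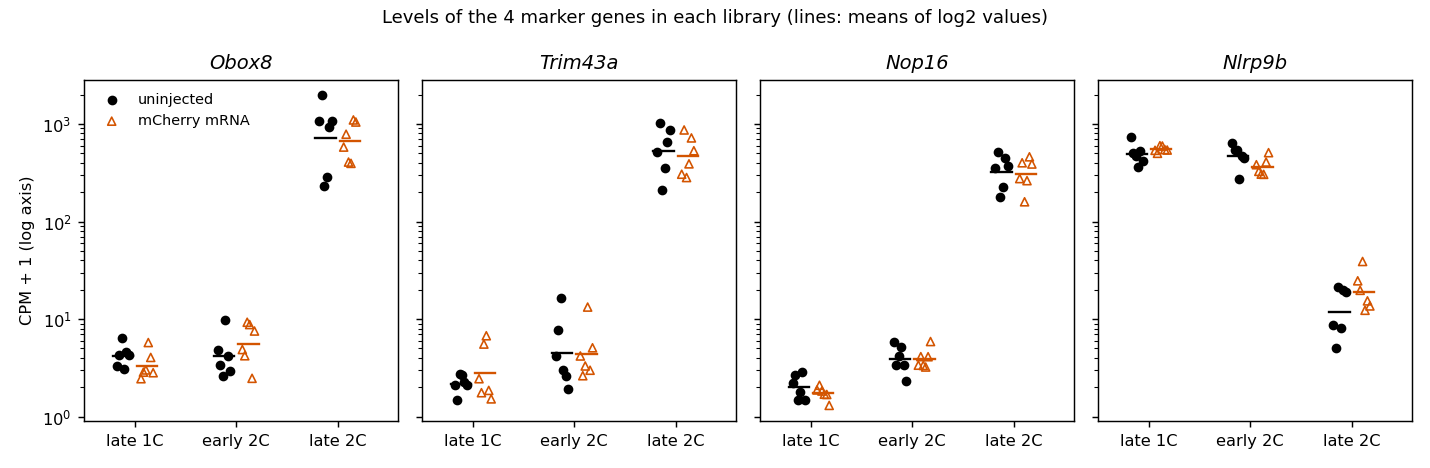
Level of Obox8, Trim43a, Nop16 and Nlrp9b in CPM (log axis) (plotted as CPM + 1) in every uninjected and mCherry library of late 1C, early 2C and late 2C, with lines at the means of the log2 values. Early and late 2C values do not overlap for any of the 4 genes, and the late libraries numbered 4 and 5 are the lowest 2 uninjected late libraries for Obox8, Trim43a and Nop16.

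Obox8, Trim43a, Nop16 and Nlrp9b stand for the main kinds of change. Obox8, a homeobox gene of the Obox family (chromosome 7, 14065361 to 14067482, minus strand, mm39), had a lowest, median and highest level of 1.59, 2.79 and 8.77 CPM in the early libraries and of 229.9, 999 and 1972 CPM in the late libraries. Trim43a, a RING-finger gene of a tandem family active at the 2-cell stage (chromosome 9, 88462944 to 88470872, plus strand), had 0.898, 2.57 and 15.6 CPM early and 208, 582 and 1034 CPM late. Every late library was above every early library for both genes, and the late libraries 4 and 5 were the lowest 2. The rises were 7.44 (SE 0.43, adjusted p = 1.27e-20) for Obox8 and 6.90 (SE 0.43, adjusted p = 2.00e-19) for Trim43a. Nop16, a nucleolar protein needed to make the large ribosomal subunit (chromosome 13, 54731998 to 54737903, minus strand), went from 1.32, 2.79 and 4.87 CPM to 176, 362 and 509.8 CPM, a rise of 6.39 (SE 0.34, adjusted p = 6.72e-22). Nlrp9b, an oocyte gene of the NLR family (chromosome 7, 19725390 to 19807231, plus strand), had 274, 506 and 639 CPM early against 4.04, 12.9 and 20.2 CPM late. It fell by 5.31 (SE 0.27, adjusted p = 1.55e-22), again with no overlap between the stages. At late 1C the means were 3.33 CPM for Obox8, 1.22 for Trim43a, 1.08 for Nop16 and 502 for Nlrp9b.

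The start regions of these genes are shown because Trim43a and Nlrp9b had few CG dinucleotides there and Nop16 and Wdr74 many. RefSeq promoters, 250 bases before and 50 after the first listed start in the GRCm38.p6 build, were available for Trim43a (chr9:88580641-88580940, plus strand), Nop16 (chr13:54590025-54590324, minus strand) and Nlrp9b (chr7:20007773-20008072, plus strand). Wdr74, a second ribosome biogenesis gene described below (chr19:8735589-8735888, plus strand), was added as an example, with no rule for choosing it among such genes. Each is written 5′ to 3′ on the strand of its gene, with CG dinucleotides in capitals.
Trim43a: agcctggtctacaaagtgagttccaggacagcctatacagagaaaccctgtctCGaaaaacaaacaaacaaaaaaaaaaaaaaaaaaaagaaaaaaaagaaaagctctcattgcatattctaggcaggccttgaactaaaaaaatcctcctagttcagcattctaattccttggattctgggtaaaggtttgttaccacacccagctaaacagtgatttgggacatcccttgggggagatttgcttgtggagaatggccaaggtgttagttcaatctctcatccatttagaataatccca
Nop16: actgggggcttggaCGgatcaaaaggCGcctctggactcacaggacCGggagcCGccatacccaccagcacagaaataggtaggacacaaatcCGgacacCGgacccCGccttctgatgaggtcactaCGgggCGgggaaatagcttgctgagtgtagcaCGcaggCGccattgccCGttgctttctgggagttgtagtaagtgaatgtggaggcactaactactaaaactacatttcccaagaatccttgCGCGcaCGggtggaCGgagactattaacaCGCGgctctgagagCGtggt
Wdr74: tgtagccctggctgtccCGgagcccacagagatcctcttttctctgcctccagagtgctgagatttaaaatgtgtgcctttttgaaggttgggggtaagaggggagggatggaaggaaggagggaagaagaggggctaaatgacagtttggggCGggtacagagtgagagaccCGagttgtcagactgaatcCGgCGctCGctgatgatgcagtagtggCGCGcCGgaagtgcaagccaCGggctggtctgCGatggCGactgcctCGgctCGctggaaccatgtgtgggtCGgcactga
Nlrp9b: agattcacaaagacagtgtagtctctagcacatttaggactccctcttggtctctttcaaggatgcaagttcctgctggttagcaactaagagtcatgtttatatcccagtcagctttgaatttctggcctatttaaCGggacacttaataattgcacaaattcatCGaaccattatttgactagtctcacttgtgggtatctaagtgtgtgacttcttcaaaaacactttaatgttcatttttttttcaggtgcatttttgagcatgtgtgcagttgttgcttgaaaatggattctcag
The Nop16 and Wdr74 windows held 19 and 15 CG dinucleotides at 56.3% and 58.0% G + C. Those of Trim43a and Nlrp9b held 1 and 2 at 39.0% and 38.0%. The Wdr74 window also held the letters CCGGAAG, the core that ETS-family transcription factors bind, starting 27 bases before the start of the gene. The windows of Nop16, Trim43a and Nlrp9b did not hold it on either strand.

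Across the genome, 16449 of the 28808 tested genes were called (57.1%), of which 8862 were higher (30.8% of those tested) and 7587 lower (26.3%) at late 2C. Without the libraries numbered 4 and 5, 8198 were higher and 7410 lower. On the deposited scale, without trimmed means, the balance was the other way, with 7845 higher and 8862 lower. The median change of all tested genes was 0.03. The shares of 30.8% higher and 26.3% lower are the background for each list count below. They understate it somewhat, since the tested list members were protein-coding and many tested genes were not. Among the 17797 tested protein-coding genes 33.7% were higher and 30.1% lower. A fit of the 12 libraries alone, with 19595 genes tested, gave 7060 higher and 6869 lower. A change of at least 2-fold was found in 6735 risen genes (23.4%) and 5721 fallen genes (19.9%). At the far ends the step was lopsided, with 194 genes that rose by 5 or more on the log2 scale and 16 that fell by as much. The values of the stages did not overlap in 9748 genes (33.8%), 4907 of them higher and 4841 lower at late 2C.

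The share of the library held by risen genes grew as that of fallen genes shrank. Genes that rose, chosen here by that rise and so given with no test, held 8.83% ± 0.47 (SD, n = 6) of the early libraries and 49.2% ± 4.41 of the late libraries. Genes that fell held 75.7% ± 1.34 early and 30.8% ± 3.86 late. Of all tested genes, 627 had a mean under 1 CPM at early 2C and at least 10 CPM at late 2C, while 105 went the other way. The late libraries were spread over more genes. The number of genes at 1 CPM or more was 16019 ± 388 early and 17584 ± 648 late, and the number of top genes that together hold 50% of a library was 782 early and 1370 late. The 100 most abundant genes of a library took up 19.0% ± 2.22 early and 11.4% ± 0.799 late. The groups did not overlap in any of these 3 measures, each with p = 0.00216 in an exact permutation test (two-sided), the lowest value that 6 against 6 libraries can reach.

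**Figure D2:**
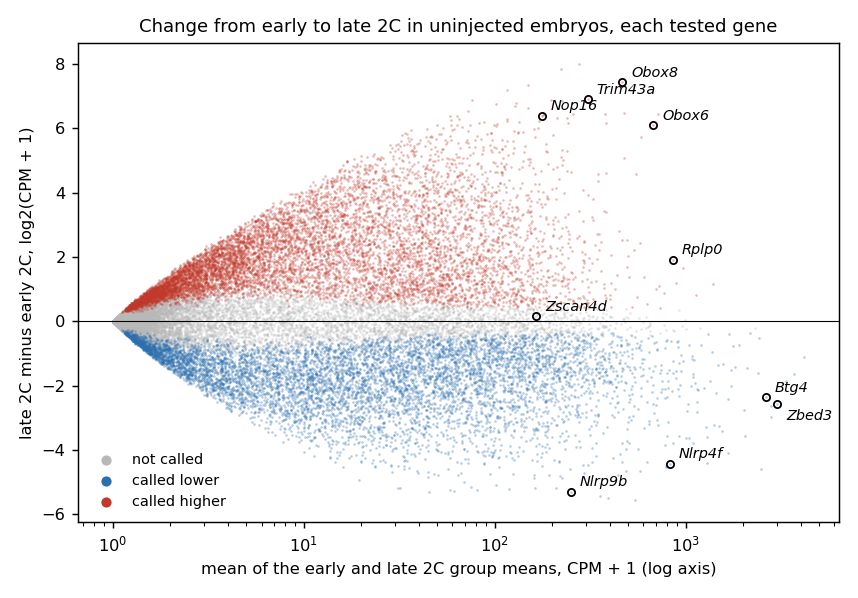
Change from early 2C to late 2C (log2 of CPM + 1, vertical axis) against mean level over both stages for every tested gene, with risen and fallen genes in colour and grey for genes not called. Rises reach further from 0 than falls, with 194 genes at 5 or more and 16 at -5 or less.

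The largest rises among genes with a proper symbol were not only those of 2-cell families. After Obox8 came Exoc3l2, a relative of an exocyst subunit, which had 0.172, 0.347 and 0.885 CPM (lowest, median, highest) early and 69.3, 257 and 345 CPM late, a rise of 7.19 (SE 0.30). Pdxk, the kinase that makes active vitamin B6 (6.77), Cd63, a tetraspanin of late endosomes (6.70), and Med29, a Mediator subunit (6.40), also rose from near 0 with no overlap between the stages. So did Ifi35, an interferon-induced gene (6.54), and Selenos, a selenoprotein of the endoplasmic reticulum (6.46). In the mCherry embryos the same genes rose by 5.82 (Ifi35) to 6.96 (Pdxk).

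The largest fall was that of Ifit1bl2, a member of the interferon-induced IFIT family, with 824, 1065 and 1231 CPM early and 10.8, 21.1 and 42.5 CPM late (-5.57, SE 0.36, adjusted p = 7.23e-19). Gja4, the connexin of oocyte gap junctions, fell from a mean of 154 to 4.42 CPM (-5.26), Npffr2, a neuropeptide receptor, from 60.6 to 0.860 CPM (-5.18), and Casp8, an initiator caspase, from 132 to 4.46 CPM (-5.01). Cldn8, a tight junction claudin (-5.16), and Izumo1r, the egg receptor Juno that binds sperm (-5.17), were of the same kind, high in every early library and under 30 CPM in every late library. At late 1C the means were 1073 CPM for Ifit1bl2 and 385 CPM for Izumo1r.

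Among transcription regulators of the 2-cell stage, the Obox family changed members. Obox6 rose from 4.49, 20.7 and 34.3 CPM to 324, 1407 and 2110.0 CPM (6.10, SE 0.45), and Obox3 from 1.24, 10.8 and 29.8 CPM to 112, 538 and 726 CPM (5.28, SE 0.44). Obox1 fell from 3030.0, 3355 and 5600.0 CPM to 185, 316 and 454 CPM (-3.58, SE 0.22), and Obox7 from 1197, 1337 and 2234 CPM to 44.2, 58.0 and 119.6 CPM (-4.52, SE 0.21). Obox5 (-2.63) and Obox2 (-3.27) also fell, and no member's values overlapped between the stages. Grouped by their direction, and so with no test, Obox3, Obox6 and Obox8 summed to 34.8 ± 20.2 CPM early and 2725 ± 1493 CPM late, while Obox1, Obox2, Obox5 and Obox7 summed to 12386 ± 2881 and 1399 ± 308 CPM. The members are close copies of each other on chromosome 7, so the split of reads among them is uncertain.

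The PRAME-like family, leucine-rich repeat genes expressed in germ cells and early embryos, was divided in the same way. Of its 43 tested members 21 were higher and 20 lower, against 30.8% and 26.3% of all tested genes. Pramel7, which had 0.128, 2.40 and 5.75 CPM early and 182, 552 and 599 CPM late, rose by 6.84 (SE 0.40), and Pramel6 by 5.87 (SE 0.43). Pramel25 fell by 2.78 (SE 0.21) from a mean of 3502 to 510.2 CPM. The oogenesins, a set of 4 PRAME-like genes first found in oocytes, all fell, most of all Oog4 (2074 to 125 CPM, -4.09) and least Oog3 (5703 to 2655 CPM, -1.13).

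**Figure D3:**
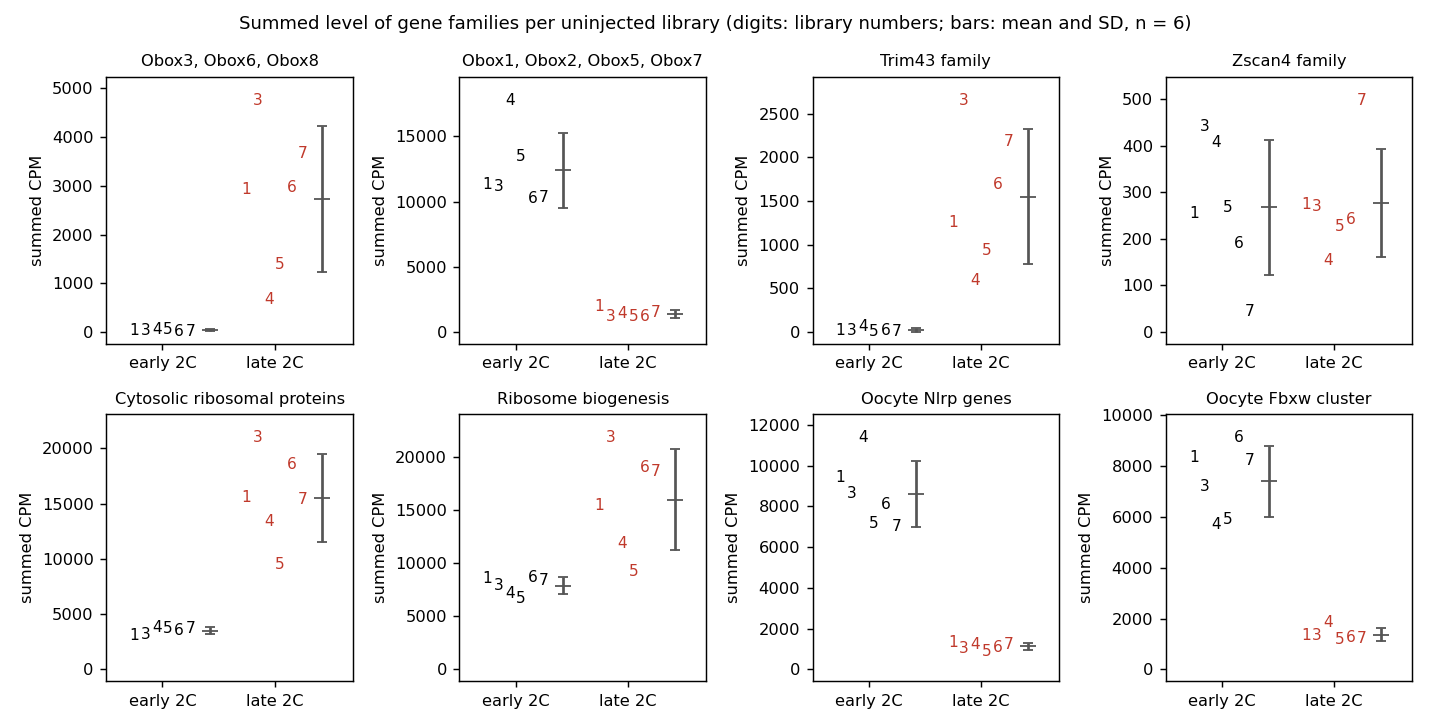
Summed CPM of gene groups in every early 2C and late 2C library (linear axes, digits are the library numbers of the labels, bars the mean and SD of 6 libraries, members of the Obox panels chosen by direction). The late libraries numbered 4 and 5 are the lowest 2 for the rising Obox genes, the Trim43 family and both ribosome lists, and Zscan4 sums overlap between the stages.

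The 2-cell families did not move alike. All 3 Trim43 genes and all 10 Tdpoz genes (BTB-domain genes in a cluster on chromosome 3) were higher at late 2C, with medians of 6.43 and 3.94. Tdpoz1 had 0.0854, 3.35 and 9.16 CPM early and 137, 246 and 365 CPM late (5.92, SE 0.47). Of the 16 tested Eif1ad genes, relatives of a translation initiation factor, 9 rose and none fell, and 12 rose without the libraries numbered 4 and 5. Eif1ad12 rose by 3.42 (SE 0.53) and Eif1ad7 by 2.75 (SE 0.53). In the Usp17l deubiquitinase family 1 of 5 was called, Usp17lb, with 5.17, 27.6 and 64.8 CPM early and 140.5, 485 and 1206 CPM late (4.08, SE 0.48). The median of the family was 0.24, and 2 of its genes rose without the libraries numbered 4 and 5, under scaling by library totals and in a fit of the 12 libraries alone.

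Zscan4 genes, zinc-finger genes that mark the start of the 2-cell program, were at like levels in both groups, though the spread was wide. Zscan4d had 35.0, 163 and 285 CPM early and 91.7, 158 and 301 CPM late (0.16, SE 0.42, adjusted p = 0.787), and Zscan4c 4.53, 73.4 and 123.4 against 40.2, 57.0 and 119 CPM (0.44, SE 0.55, adjusted p = 0.52). Of the 5 tested Zscan4 genes none rose and 1 fell, the low Zscan4e (-1.17), and without the libraries numbered 4 and 5 none fell (-0.62, adjusted p = 0.235, for Zscan4e). At late 1C the means were 16.6 CPM for Zscan4d and 2.48 CPM for Zscan4c. Duxf3, the gene of the 2-cell activator DUX, was low throughout, with a mean of 4.57 ± 1.40 CPM early and 0.340 ± 0.691 CPM late (-2.13, SE 0.35, adjusted p = 7.35e-07). Zscan4c, Zscan4d, Zscan4e and Duxf3 were named for their place in the 2-cell program after their values had been seen. Of 17 other genes known from 2-cell-like cells 10 rose, among them Alppl2, a placental-type alkaline phosphatase gene (4.43, SE 0.40), and 4 fell, among them the zinc-finger gene Zfp750 (173 to 12.4 CPM, -4.14).

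Regulators linked to the major wave were mostly higher, 19 of 30 against 8 lower, with a median of 1.15. Among all tested genes 30.8% were higher and 26.3% lower. Gabpa, the DNA-binding ETS subunit of the GABP factor, had 6.46, 8.84 and 14.3 CPM early and 105, 332 and 496 CPM late (4.77, SE 0.40, adjusted p = 4.68e-15). Dppa4, a chromatin factor that activates 2-cell genes, had 9.21, 13.9 and 20.1 CPM against 248, 449.8 and 701 CPM (4.84, SE 0.29), while its partner Dppa2 was already at a mean of 137 CPM early and rose by 1.11 (SE 0.24) to 337 CPM. Every late library was above every early one for Gabpa and Dppa4, but the stages overlapped for Dppa2. The factors Klf5 (3.88) and Yy1 (3.58) rose too. Klf17, an oocyte KLF factor, fell from a mean of 1279 to 435 CPM (-1.61, SE 0.26). Klf17 and Dppa2 were named after their values had been seen.

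Genes of the ribosome rose as a body. Of 86 tested genes for cytosolic ribosomal proteins 81 were higher and 1 was lower, with a median of 2.75 against 0.03 for all genes, and the same 81 and 1 were counted without the libraries numbered 4 and 5. The list summed to 3497 ± 301 CPM early and 15544 ± 3981 CPM late, with no overlap between the groups. Rps19 had 2.33, 3.72 and 4.87 CPM early and 122, 199.7 and 239.5 CPM late (5.40, SE 0.29), and Rps27, Rpsa and Rps26 rose by 5.50, 5.40 and 4.88. Rplp0, of the ribosomal stalk, started far higher, at a median of 316 CPM, and rose by 1.91 (SE 0.21) to a median of 1480.0 CPM. Rpl17 was the exception, falling from a mean of 282 to 152 CPM (-0.92, SE 0.14). Ribosomal protein genes have many processed pseudogenes with like sequences, so reads may be shared with them.

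The factors that assemble ribosomes moved with them, with 85 of 104 ribosome biogenesis genes higher and 5 lower and a median of 1.92. Wdr74, a nucleolar WD40 protein, had 2.50, 6.52 and 7.62 CPM early and 128, 200.1 and 249 CPM late (4.83, SE 0.27). Utp23 of the small-subunit processome (5.64, SE 0.38) and the nucleolar protein Mybbp1a (4.95, SE 0.43) rose further, from means of 2.04 and 1.39 CPM. Subunits of RNA polymerases I, II and III were higher in 24 of 30 cases and lower in 4, with a median of 1.76. They included Polr1e (4.31, 6.80 and 9.62 CPM early, 69.2, 236 and 301 CPM late, 4.63, SE 0.39) and Polr1b (3.45) of the enzyme that makes ribosomal RNA, and Polr3e (3.71) of the enzyme that makes 5S RNA and tRNA. Mitochondrial ribosomal proteins were less one-sided, with 40 of 79 higher, 20 lower and a median of 0.61.

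**Figure D4:**
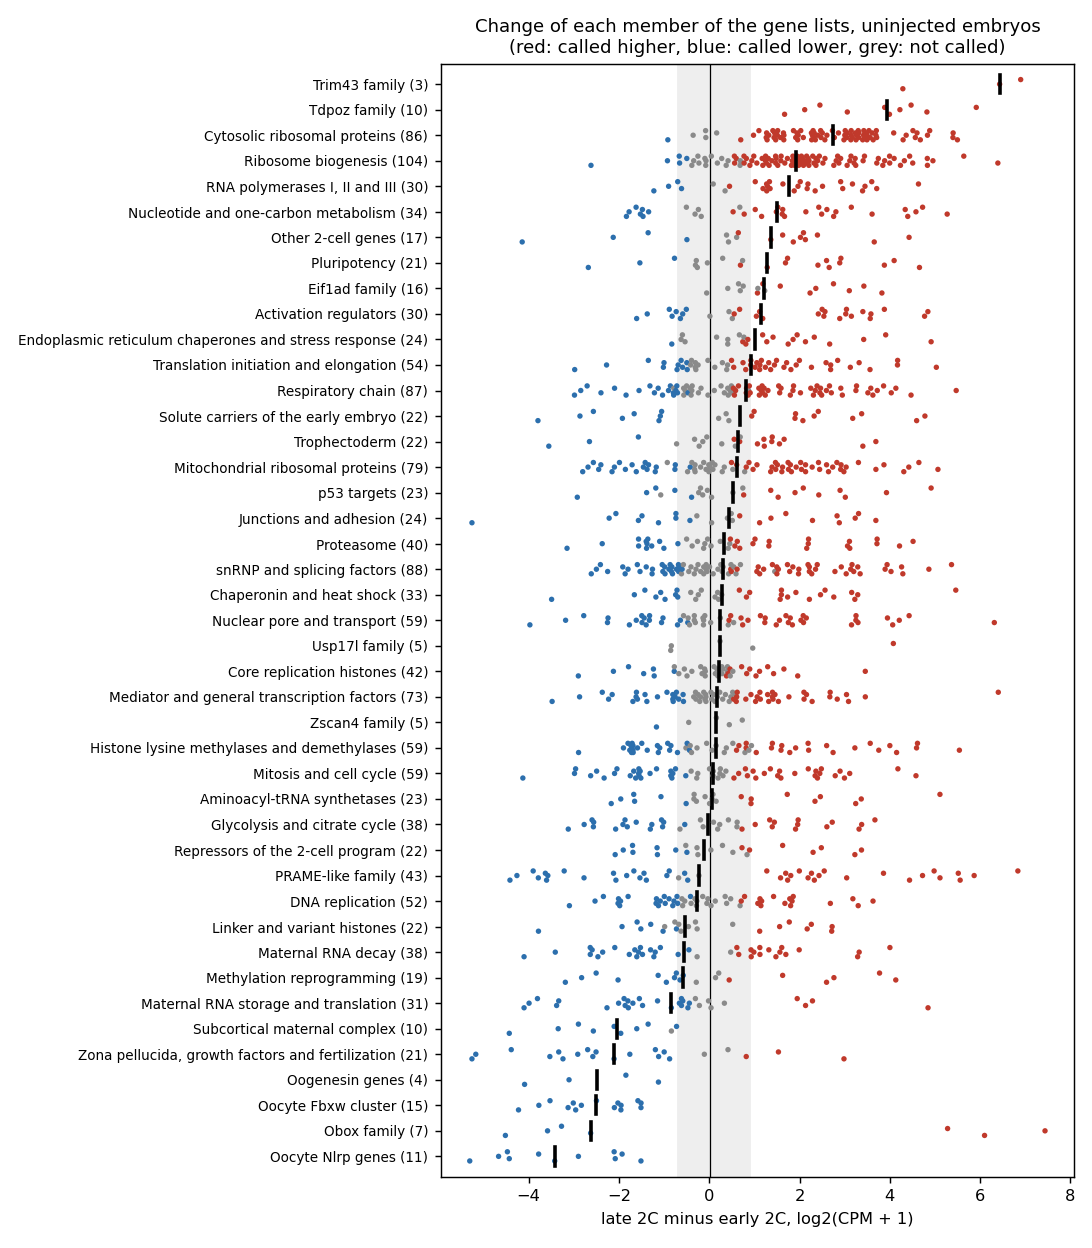
For each gene list, the change from early 2C to late 2C (log2 of CPM + 1) of every tested member as a point, with the median of the list as a bar and the middle 50% of all tested genes as a grey band. Cytosolic ribosomal proteins and ribosome biogenesis lie to the right at medians of 2.75 and 1.92, and oocyte Nlrp genes to the left at -3.43.

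Promoter letters are described for lists with enough windows. Over the 88 of 104 ribosome biogenesis genes with a RefSeq window of 300 bases, the median was 20.5 CG dinucleotides and 57.5% G + C, against 7 and 52.7% over all 27025 genes of that table. The ETS core CCGGAAG, searched on both strands, was in 38 of the 88 windows (43.2%) and in 9.12% of all windows. All windows include those of genes not tested here, since only 13963 tested protein-coding genes had a window. The E box CACGTG, which is its own complement, was in 20.5% of the 88 and 7.24% of all, and in 22.2% of the windows of Mediator and general transcription factors, a list that went both ways. Among the 10 of 11 oocyte Nlrp genes and the 12 of 15 oocyte Fbxw genes with a window, none held the ETS core, and the medians were 2 and 1 CG dinucleotides. Few CG dinucleotides did not go with every list that fell, since 25 of the 31 maternal RNA storage genes, mostly lower, had windows with a median of 28 and 68.3% G + C. The ETS core alone did not set lists that rose apart from lists that did not, being in 38.2% of 34 proteasome windows, a list with 18 of 40 genes higher and 12 lower. It was also in 38.1% of DNA replication, 37.8% of splicing and 31.2% of maternal RNA decay windows, lists that went both ways. In glycolysis and the citrate cycle, which went both ways too, it was in 11.4%. A match is a description of these letters and not a bound site. Windows covered 75.6% of tested ribosomal protein genes, under the 80% set as a minimum, so they were not described.

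Other machines of gene expression were closer to the shares of all tested genes, 30.8% higher and 26.3% lower. Of 73 genes of Mediator and the general transcription factors, 29 rose and 21 fell, with Med29 at one end (3.27 to 351 CPM) and Taf9b, a TFIID subunit, at the other (673 to 61.4 CPM, -3.48). Among 59 genes of the nuclear pore and nuclear transport 27 rose and 18 fell, and the importin Kpna1 rose by 6.32 (SE 0.40) from 0.727, 4.39 and 8.94 CPM to 182, 454 and 628 CPM. Splicing genes were 37 higher and 26 lower of 88, including Gemin5, which helps build spliceosomal snRNPs (5.37), and the core protein Snrpd2 (4.26). Translation factors leaned upward, 32 of 54 against 11, with Eif3c at 3.56 (SE 0.27). Of 23 aminoacyl-tRNA synthetases 9 rose and 6 fell, and Yars, for tyrosine, rose from a median of 0.264 to 49.5 CPM (5.11). The chaperonin subunit Cct6a rose by 5.46 in a list of 33 with 16 higher and 9 lower, and the proteasome subunit Psmb5 by 4.51.

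In purine, serine and one-carbon synthesis 22 of 34 genes were higher and 7 lower, with a median of 1.50, against 30.8% higher and a median of 0.03 for all genes. Ppat, which commits phosphoribosyl units to purine synthesis, had 1.25, 3.19 and 7.79 CPM early and 56.6, 206 and 291 CPM late (5.27, SE 0.42). Impdh2 (4.72), of guanine nucleotide synthesis, Adsl (4.58), of purine synthesis, and Psat1 (4.40), of serine synthesis, rose in the same range. Prps1, which makes the phosphoribosyl donor, was among the 10 largest gains in CPM (29.9 to 918), as was Gcsh of the glycine cleavage system (44.8 to 1048). Respiratory chain genes were higher in 47 of 87 and lower in 19. Glycolysis and the citrate cycle were divided, 13 higher and 16 lower of 38 (16 and 13 with scaling by library totals), and related isozymes moved in opposite directions. The lactate dehydrogenase gene Ldhb fell from 895, 1072 and 1560.0 CPM to 126, 162 and 447 CPM (-2.56, SE 0.20), while Ldha rose from a mean of 7.65 to 43.9 CPM (2.72, SE 0.40), so that Ldhb was still the higher of them in CPM. The glucose transporter gene Slc2a1 fell by 2.57 (SE 0.29) and Slc2a3 rose by 3.38 (SE 0.33). Mdh2 (3.32) and Idh3g (3.67) of the citrate cycle rose, and Dlat, of the pyruvate dehydrogenase complex, fell by 3.12. Ldha, Ldhb and Slc2a1 were named after their values had been seen.

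The level of stored oocyte RNA fell list by list, and loss of RNA and loss of poly(A) tails cannot be told apart here. All 11 tested oocyte Nlrp genes were lower, with a median of -3.43, and their sum was 8604 ± 1633 CPM early and 1123 ± 160 CPM late. Nlrp4a had 831, 1105 and 1448 CPM early and 27.2, 38.6 and 82.0 CPM late (-4.67, SE 0.19, adjusted p = 1.27e-25), and Nlrp4b and Nlrp4f fell by 4.47 and 4.43. The 15 tested oocyte Fbxw genes, a tandem set of F-box genes on chromosome 9, were all lower as well, with a median of -2.50, led by Fbxw26 (-4.23) and Fbxw22 (-3.78). Of the 10 genes of the subcortical maternal complex, a protein assembly under the egg membrane that early cleavage needs, 9 were lower and none higher. Ooep had 776, 913 and 943 CPM against 63.3, 71.6 and 223 CPM (-3.35, SE 0.20), Nlrp5 fell by 2.90 and Zbed3 by 2.57. No early and late values overlapped for these named genes.

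Genes of the zona pellucida, oocyte growth factors and fertilization were lower in 16 of 21 cases and higher in 3. Izumo1r had 317, 416 and 483 CPM early and 2.12, 11.9 and 27.6 CPM late (-5.17, SE 0.28). The oocyte transcription factor genes Nobox (413 to 18.5 CPM, -4.39) and Lhx8 (76.3 to 6.25 CPM, -3.53) fell steeply. The 3 that went against the list were Cd9, a tetraspanin needed for gamete fusion (0.82), Taf4b, a TFIID subunit of germ cells (1.53), and Sohlh1, a germline transcription factor gene (2.98), which had 0, 0.174 and 0.399 CPM early and 1.05, 6.86 and 43.3 CPM late.

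RNA-binding proteins that hold maternal mRNA also fell, 22 of 31 against 4, and one exchange within the list was between close relatives. Pabpc1l, the poly(A)-binding protein of oocytes, had 48.0, 92.2 and 127 CPM early and 1.90, 4.45 and 16.0 CPM late (-3.99, SE 0.30). Pabpc1, the poly(A)-binding protein of most other cells, had 5.13, 8.06 and 14.9 CPM early and 217, 288 and 365 CPM late (4.85, SE 0.29). Neither gene's values overlapped between the stages. Pabpn1l, another oocyte poly(A)-binding protein, fell by 4.10, and it is also a member of the decay list below. The oocyte cap-binding protein gene Eif4e1b fell by 3.81, whereas its relative Eif4e was at 1031 ± 189 CPM early and 963 ± 476 CPM late (-0.25, SE 0.22, adjusted p = 0.349). Eif4e was named after its values had been seen.

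Genes of the machinery that destroys maternal RNA went both ways. Of 38 genes 20 were lower and 16 higher, against 26.3% lower and 30.8% higher among all tested genes. Btg4, the adaptor that brings the CCR4-NOT deadenylase to maternal mRNA, had 3551, 4046 and 6331 CPM early and 645, 809 and 1189 CPM late (-2.36, SE 0.18). The steepest fall of this list was that of Pabpn1l (-4.10), counted among the RNA-binding proteins as well. Cnot11, a CCR4-NOT subunit, fell by 3.41 (SE 0.44). Tob1, an adaptor of the same BTG/TOB family as Btg4, rose from a mean of 6.22 to 105 CPM (SE of the log2 change 0.33), and Tut4, which adds uridines to RNA tails, by 3.32 (SE 0.32).

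Chromatin genes moved both ways. H1f8, the linker histone of oocytes, had 733, 909.6 and 1175 CPM early and 31.5, 69.1 and 113 CPM late (-3.79, SE 0.24), while the H2A.Z genes H2az1 (90.0 to 612 CPM) and H2az2 (33.3 to 217 CPM) rose by 2.71 and 2.72. Of 59 histone lysine methylases and demethylases 23 rose and 23 fell, against 30.8% and 26.3% of all tested genes. Suv39h1, a histone H3 lysine 9 methylase, had 0.266, 2.17 and 2.35 CPM against 70.8, 124 and 164 CPM (5.54, SE 0.43), and its relative Suv39h2, named after its values had been seen, fell from a mean of 212 to 63.0 CPM (-1.71, SE 0.24). The lysine 9 demethylase genes Kdm4c (4.59) and Kdm3a (4.15) rose. In DNA methylation, Tet3, the oocyte oxidase of 5-methylcytosine (-2.83), and Zfp57, a keeper of imprints (-3.19), fell, and Gadd45b (4.13) and Uhrf2 (3.77) rose, in a list of 19 with 6 higher and 10 lower. The Y-linked genes Uty and Eif2s3y, which report transcription of the paternal genome alone, had medians of 0.150 and 0.0214 CPM early and 29.6 and 19.4 CPM late, with rises of 4.61 (SE 0.39) and 4.17 (SE 0.34). Their late values ranged from 10.1 to 94.5 CPM and from 3.44 to 41.2 CPM in pools whose mix of male and female embryos is not given in the sources used here.

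Core histone genes depended on the libraries used. Of the 42 tested, 13 were higher and 7 lower, but without the libraries numbered 4 and 5 it was 9 and 11. Their RNAs mostly lack poly(A) tails, which the cDNA kit primes on, so the counts describe a minor part of them. DNA replication genes were 16 higher and 20 lower of 52, and scaling by library totals reversed that balance to 20 and 15. Among all tested genes 30.8% were higher and 26.3% lower. The polymerase gene Pole rose by 3.63 and Timeless, of the fork protection complex, fell by 3.10.

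Cell cycle genes were evenly split, with 24 of 59 higher and 24 lower, against 30.8% and 26.3% of all tested genes. Ccne1, cyclin E1 of the entry into S phase, had 15.4, 22.2 and 42.6 CPM early and 335, 628 and 1038 CPM late (4.58, SE 0.43). Fbxo43, the inhibitor Emi2 that holds the egg in meiosis, had 265, 298 and 387 CPM against 6.39, 19.0 and 30.7 CPM (-4.13, SE 0.22). Cdc25c, a phosphatase that starts mitosis, rose by 4.18 (SE 0.33). Between relatives named after their values had been seen, the oocyte kinase gene Wee2 fell from a mean of 1314 to 462 CPM (-1.56, SE 0.15) as Wee1 rose from 8.75 to 72.7 CPM (2.99, SE 0.26), and the meiotic kinase gene Aurkc fell from 429 to 73.2 CPM (-2.63, SE 0.18) as Aurkb rose from 19.7 to 88.6 CPM (1.89, SE 0.36).

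Genes of later lineages were read against 30.8% higher and 26.3% lower among all tested genes, 57.1% in either direction. Of 21 pluripotency genes 12 rose and 3 fell, with a median of 1.28. Fgf4, a growth factor of the inner cell mass, had 0, 0.177 and 0.398 CPM early and 5.18, 35.5 and 64.0 CPM late (4.66, SE 0.44), and Zfp42 rose by 4.09 and Klf2 by 2.92. The 3 that fell are also oocyte transcripts. Pou5f1 had 130.1, 186 and 355 CPM against 20.8, 29.3 and 40.5 CPM (-2.68, SE 0.22), Lin28a fell by 1.54, and Dppa3 fell by 0.77 (SE 0.17) but not without the libraries numbered 4 and 5 (-0.34, adjusted p = 0.0953). Nanog, named after its values had been seen, stayed under 3 CPM in every library. Trophectoderm genes were 11 higher and 3 lower of 22, and 7 and 5 without those libraries. Their share called in either direction was near that of all genes, but with all libraries the calls leaned upward. Gata3 had 56.7, 103 and 115 CPM early and 3.29, 5.91 and 14.2 CPM late (-3.56, SE 0.27), whereas Tead4, its upstream regulator in that lineage, rose from a median of 1.09 to 21.5 CPM (3.40, SE 0.29). Cdx2, named in the same way, stayed under 2 CPM in every library.

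Stress and adhesion genes were counted against 30.8% higher and 26.3% lower among all tested genes. Of 24 genes for endoplasmic reticulum chaperones and the stress response 15 were higher and 1 lower, and 14 and 4 without the libraries numbered 4 and 5. Sesn2, a sestrin induced by stress, had 1.50, 2.19 and 9.21 CPM early and 65.7, 110.4 and 212 CPM late (4.91, SE 0.39), and Dnajb9, a cochaperone of the reticulum, rose by 3.42. Calr, the lumenal chaperone calreticulin, was the one that fell (201 to 110.3 CPM, -0.83), and its call was lost under scaling by library totals (-0.46, adjusted p = 0.06). Of 23 p53 targets 10 rose and 5 fell, near the share of all genes, including Pmaip1, a cell death gene (3.92). Among 24 junction and adhesion genes 10 rose and 9 fell, which is also a mixed result. The claudin gene Cldn6 (3.69) and F11r, which encodes a junction adhesion molecule (3.31), rose as Gja4 fell. Amino acid transport changed through Slc1a5, a glutamine transporter (4.78), and Slc6a9, a glycine transporter (-3.80), in a list of 22 solute carriers with 11 higher and 8 lower.

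The largest gains and losses in share of the library came from other genes than the largest ratios, and because CPM is not divided by transcript length they are not an order of molecules. B020004C17Rik, a long noncoding RNA by its biotype in the deposited table but protein-coding in RefSeq, gained most, from 5.08, 9.43 and 105 CPM to 616, 1528 and 2107 CPM (6.43, SE 0.54). The processed pseudogenes Gm5612 (22.1 to 1146 CPM) and Gm12617 (10.6 to 939 CPM) were among the 10 largest gains, with Calm2, a calmodulin gene (463 to 1477 CPM), and Eif5, of translation initiation (879.7 to 1892 CPM). The largest loss was that of E330021D16Rik (4766 to 194 CPM, -4.61), followed by Trim61 (4978 to 599 CPM, -2.98), Zbed3 and Obox5. Spin1, a histone reader of oocytes (5582 to 1785 CPM), and Tcl1, a kinase coactivator of oocytes (5220.0 to 1469 CPM), lost much of their level but were still at 1324 and 938 CPM in their lowest late libraries.

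Long noncoding RNAs went both ways, with 1244 of 5169 higher (24.1%) and 1196 lower (23.1%). Gm33508 had 0, 0.515 and 1.45 CPM early and 48.2, 444 and 798 CPM late (7.84, SE 0.48), more than the rise of Obox8. Gm50056 (849 to 30.7 CPM, -4.79) and Gm17830 (369.8 to 13.2 CPM, -4.77) were high in all early libraries and low in all late libraries. As a class, long noncoding RNAs held 4.49% ± 0.380 of the early libraries and 3.46% ± 0.514 of the late libraries (two-sided exact permutation p = 0.00433). Protein-coding genes held 90.1% ± 1.12 and 90.3% ± 1.04 (exact p = 0.784), and 6002 of 17797 were higher and 5351 lower.

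Risen and fallen protein-coding genes differed in size, which is given as a description. The median span from start to end was 16.3 kb for genes that rose at least 2-fold, 34.7 kb for those that fell at least 2-fold and 22.0 kb for all tested. Their median exon lengths were 3.70, 4.42 and 3.99 kb.

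The same interval in mCherry embryos shares no library with the uninjected embryos and gave close to the same step. The library numbers recur in it, however, and its late libraries numbered 4 and 5 were also the lowest 2 of their group for Obox8 (406 and 394 CPM) and Nop16 (159 and 262 CPM) and in deposited total (13.3 and 12.8 M). Whether a number marks a shared collection is not given in the labels. There 16512 of 28808 genes were called (57.3%), 8962 higher and 7550 lower. Of the calls in uninjected embryos 14382 were also made with the same sign in mCherry embryos, which is 87.4% of the uninjected and 87.1% of the mCherry calls, and 2 genes were called with opposite signs. Both steps came from 1 fit that shares the spread of each gene, so the overlap of calls is not that of independent tests. Across the 11744 genes that reached 10 CPM the steps had a Pearson r of 0.986, a description over genes, which are not independent replicates. The median absolute difference of the steps was 0.23. Obox8 rose by 6.88 in the mCherry embryos, Trim43a by 6.75 and Nop16 by 6.29, and Nlrp9b fell by 4.26. No gene was called for a difference between the steps by limma, with 1065 at an unadjusted p under 0.05 and none by voom. The Zscan4 median was 1.28 in mCherry embryos and 0.16 in uninjected embryos, a difference not called for any gene.

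**Figure D5:**
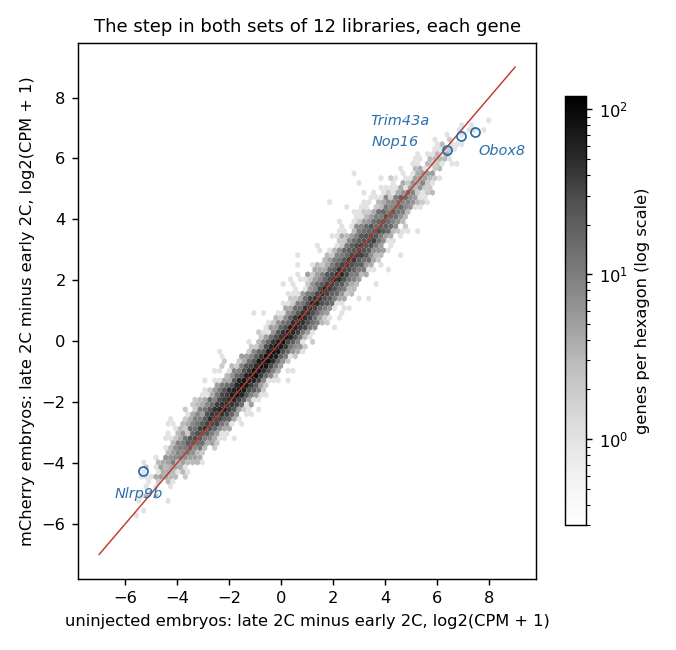
Change from early 2C to late 2C in mCherry embryos (vertical axis, log2 of CPM + 1) against that in uninjected embryos (horizontal axis) for the genes that reached 10 CPM, shaded by the number of genes per cell, with the diagonal. Genes lie along the diagonal (r = 0.986), and Obox8, Trim43a, Nop16 and Nlrp9b are marked near its ends.

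Duxbl embryos took the step differently. The difference between their step and that of uninjected embryos was called for 13057 of 28808 genes (45.3%), 6309 higher and 6748 lower, with 5 libraries per Duxbl stage against 6. In Duxbl embryos Obox8 had means of 8.10 CPM early and 4.29 CPM late, a difference from the normal step of -8.03 (SE 0.64), and Trim43a 3.71 and 3.23 CPM, a difference of -6.96 (SE 0.64). Nop16 had 3.32 and 9.73 CPM, a difference of -5.47 (SE 0.50). Nlrp9b had 370.0 and 72.5 CPM (3.02, SE 0.40), a fall smaller than the normal one. Injection and Duxbl are joined in this comparison and cannot be told apart in it. With injection of mCherry mRNA alone, 0 of 28808 genes were called for a difference from the uninjected step. The Duxbl step was not tested against the mCherry step.

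Markers of other cells that could cling to embryos from the oviduct were low, and they moved with the stages. Of 13 tested cumulus and granulosa markers 2 rose and 4 fell, against 30.8% and 26.3% of all tested genes. They summed to 70.0 ± 10.1 CPM early and 18.7 ± 7.50 CPM late, most of it Cyp19a1 (54.7 to 3.47 CPM), and Inha was listed at 0 in every early library. Of 7 oviduct markers 3 rose and none fell. They summed to 14.4 ± 7.32 and 155 ± 26.5 CPM, mostly Epcam (3.42 to 106 CPM), an adhesion gene that embryos also express, and the oviduct glycoprotein gene Ovgp1 was at 1.50 and 8.32 CPM. Foxj1, of ciliated cells, and Ptprc, of white blood cells, were at or near 0 in both groups. Sperm markers, with 3 of 10 higher and 4 lower, summed to 205 ± 18.0 and 90.6 ± 27.1 CPM, mostly Odf2, and blood markers, with 2 of 5 higher, to 14.3 ± 5.45 and 46.9 ± 16.3 CPM, mostly the globin genes Hba-a1 and Hba-a2. The ranges of the 4 sums did not overlap between the stages, and their part in the results was not tested.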

How the data were processed

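Pooled uninjected mouse embryos were profiled by RNA sequencing at early 2C (6 libraries) and late 2C (6 libraries). The kits, per the labels' protocols, were SMART-Seq v4 for cDNA, without RNA extraction, and Nextera XT for libraries. The genome was mm39, and the tools named, with no roles, were DESeq, DESeq2 1.36.0, featureCounts 2.0.4, STAR 2.7.10a, Trimmomatic 0.39 and Picard 3.0.0, per the submitters' processing notes. The deposited table is a score, whole numbers that, judged from their steps, the authors made by scaling reads per library and rounding. They are not counts, and the count test planned for raw counts was replaced by its planned fallback, limma on log values. No counting interval or detection floor was computed, since the depth in reads is unknown. No pair of libraries held identical values.

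CPM are these values scaled by library totals and trimmed-mean factors, with 30% trimmed by ratio and 5% by abundance. Tested genes had a value of 10 or more in at least 4 of the 50 libraries. limma 3.58.1 in R 4.3.3 fitted log2(CPM + 1) with 1 mean for each of 9 groups and a trended, robust variance, so that all groups shared 1 estimate of the spread. The step was late minus early 2C, and differences of steps were contrasts of the same fit. Adjustment was by the Benjamini-Hochberg method over 28808 genes and tests were two-sided. A pseudocount of 1 understates the change of low genes. The fit was also run on simulated data in which a small set of genes changed, evenly up and down. In the step 57.1% of genes were called, so that simulation cannot show how trimmed-mean scaling behaves here. Promoters came from a RefSeq table (GRCm38.p6) matched by Ensembl gene ID, failing that by symbol, and failing that by a synonym naming 1 gene. It covered 78.5% of tested protein-coding genes, under the set minimum of 80%, so promoters were described only for lists with at least that share.

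Named genes were Obox8, Trim43a, Nop16 and Nlrp9b, 12 called genes each for the largest rise and fall (a mean of 10 CPM or more in 1 group, no overlap, no Gm or Rik symbol), the 10 largest gains and losses of mean CPM, up to 4 called members of each of 47 gene lists by size of change with 3 or fewer members against the list, the 3 largest rises and falls of long noncoding RNAs, and the 5 genes with the smallest adjusted p of each difference of steps. Those of the mCherry difference are left out, as none was called. A gene that the rule names is not reported here. Genes outside this rule, namely Obox2, Ovgp1, Foxj1, Inha, Ptprc and those marked in the text, were named after their values had been seen. The comparison, its members and the lists were chosen with earlier results of these data known. Alternatives were library totals or the deposited scale in place of trimmed means, a pseudocount of 0.1, no filter, voom weights, a fit of the 12 libraries alone, a replicate block, each library left out in turn, and both libraries numbered 4 and 5 left out.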

Additional observations from a re-analysis of the deposited data

Results flagged for a closer look

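Single libraries stood far from the other 5 of their group in 38 of the values reported, by Dixon's criterion on the gap over the range. Chance flags about 1 in 20 groups, or about 17 of the 340 examined here. Library number 4 gave 24 of the 38 and library number 5 gave 8. The early library 4 was the highest of its group for B020004C17Rik (105 CPM), Klf17 (2093), Nlrp4f (2247), Oog3 (8587), Pou5f1 (355), Rplp0 (511), Rpsa (11.8), Sesn2 (9.21), Tcl1 (7847), Trim61 (9112) and Wee2 (1684). It was the lowest for Lhx8 (33.9 CPM), Suv39h2 (101) and Tob1 (0.797), and it had the highest early deposited total (25.98 M). The late library 4 was the highest of its group for 9 genes, 8 of which fell over the step, namely Casp8 (13.5 CPM), Cldn8 (19.5), E330021D16Rik (331), Fbxw26 (26.7), Gja4 (16.7), Ldhb (447), Ooep (223) and Pabpc1l (16.0). The other was Polr1b (107), which rose.

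The early library 5 was the highest for Obox8 (8.77 CPM), Rps27 (3.98), Slc1a5 (5.36), Taf4b (103), Yars (2.48) and Zfp42 (5.67) and the lowest for Mdh2 (13.1). The late library 5 had the lowest deposited total (12.04 M). Outside these 2 numbers, the late library 3 was the highest for Dppa2 (726 CPM) and Eif1ad7 (584), the late library 1 for Duxf3 (1.75) and the early library 6 for Ifi35 (1.97). The early library 3 was the lowest for Wdr74 (2.50 CPM) and the early library 1 for Gm17830 (330.3). Every gene named in these 2 paragraphs was called in the step, and each was called with the same sign without the libraries numbered 4 and 5.

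The step differed between Duxbl and uninjected embryos in 13057 genes by the limma test of the difference. For Obox8, Trim43a and Nop16 the difference was -8.03, -6.96 and -5.47, and for Nlrp9b it was 3.02. The smallest adjusted p values belonged to the mitochondrial ribosomal protein genes Mrpl41 (-6.36) and Mrpl51 (-4.07), the predicted gene Gm14798 (-5.18), the ribosome biogenesis gene Znhit3 (-5.89) and Ndufs8 of respiratory complex I (-6.32), all of which rose less or not at all in Duxbl embryos.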

How the results depend on the processing

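The counts of risen and fallen genes stayed within 1.5 times of 8862 and 7587 under every alternative run. Higher genes ranged from 7060 (the 12 libraries alone, 19595 genes tested) to 9985 (library totals), and lower genes from 6370 (library totals) to 8862 (deposited scale). Which direction had more genes depended on the scaling, with 7845 higher and 8862 lower on the deposited scale. Library totals moved the median of all genes to 0.15 and the deposited scale to -0.14. Leaving out 1 library gave 8512 to 8770 higher and 7263 to 7480 lower genes. For mCherry against uninjected embryos, 3 genes were lower without the libraries numbered 4 and 5, against none with them, and the cause was not tested. Of 152 called genes named in the report none changed direction, and calls were lost only for Calr (library totals), Dppa3 and Zscan4e (without libraries 4 and 5) and Nanog (without those libraries, or without the late library 5 alone). Cdx2 passed without libraries 4 and 5 (-0.72). Genes that were not called changed sign, namely Eif4e by library totals (0.12) and without libraries 4 and 5 (0.38), Zscan4d on the deposited scale (-0.051), and Zscan4d (-0.23 to 0.37) and Zscan4c (-0.18 to 0.72) over libraries left out. List counts moved by over 1.5 times in 8 of 94 cases under library totals, 4 under the deposited scale and 7 without libraries 4 and 5. Deviations from the group means of same-numbered early and late libraries had correlations of -0.22 to 0.12, and 0 of 6 matched its own number best. This check cannot decide whether a number marks a shared collection, which need not move the same genes at both stages. The main fit treated the libraries as unpaired. A replicate block gave 8982 higher and 7743 lower genes and changed no call of a named gene. Low genes are limited by a pseudocount of 1 and an unknown read depth.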
